A study of Homo sapiens with 6 samples.

Results

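The snoRNA host noncoding genes examined here were 10 long noncoding RNA genes, SNHG1, SNHG5, SNHG6, SNHG7, SNHG8, SNHG12, SNHG15, SNHG16, GAS5 and ZFAS1. They were chosen by name as noncoding genes that carry small nucleolar RNAs (snoRNAs) in their introns, with earlier results of these data known. All 10 were found among the 26255 rows of the deposited expression table. RNA was sequenced from H1299 cells, a human non-small cell lung cancer line, carrying either a control shRNA (shControl, n = 3) or an shRNA against Ephexin1 (shEphexin1, n = 3). Both shRNAs were expressed from the U6 promoter of pSilencer2.1, and both groups were grown in RPMI-1640 with fetal bovine serum. Ephexin1, encoded by NGEF, is a guanine nucleotide exchange factor of the Dbl family, and the comparison asked which transcripts change when it is depleted. The shEphexin1 labels share 1 stem, so the 3 libraries may come from 1 selected clone, and nothing stated that the libraries of a group were separate cultures. The p-values therefore measure the spread between these libraries, which may be technical.

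Noncoding snoRNA host genes are transcribed by RNA polymerase II, spliced, and their introns are trimmed to release snoRNAs, which guide chemical modification of ribosomal RNA. Many of the spliced host RNAs begin with a 5' terminal oligopyrimidine (5'TOP) tract, a C followed by a run of pyrimidines that is shared with ribosomal protein mRNAs and that ties their translation to growth signals through mTOR. Because these host RNAs hold only short open reading frames but are bound by ribosomes, several of them are degraded by nonsense-mediated decay, and their level depends on translation as well as on transcription. GAS5 was named for its rise in growth-arrested cells, and several SNHG genes are known for high levels in tumours.

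The start of the transcript is shown for 8 hosts matched in the RefSeq promoter table (GRCh38.p14). The 5'TOP tract is the sequence feature these genes are best known to share. SNHG6 and SNHG15 were not in that table. Each line gives 50 bases on the transcribed strand, 5' to 3', with the annotated first base of the transcript after the first 25 bases. Only the 20 bases on each side of the start were searched, and capitals mark each C in them that is followed by at least 4 pyrimidines, with the rest of its run. The outer 5 bases at each end were not searched and are in lower case whatever they hold. The windows were chr11:62855861-62855910 (minus strand) for SNHG1, chr6:85678709-85678758 (minus) for SNHG5, chr9:136728160-136728209 (minus) for SNHG7, chr4:118278737-118278786 (plus) for SNHG8, chr1:28581849-28581898 (minus) for SNHG12, chr17:76557739-76557788 (plus) for SNHG16, chr1:173869021-173869070 (minus) for GAS5 and chr20:49278617-49278666 (plus) for ZFAS1.
SNHG1: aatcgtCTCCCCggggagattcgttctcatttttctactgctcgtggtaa
SNHG5: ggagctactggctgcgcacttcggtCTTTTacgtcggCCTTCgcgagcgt
SNHG7: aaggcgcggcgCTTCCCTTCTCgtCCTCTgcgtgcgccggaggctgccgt
SNHG8: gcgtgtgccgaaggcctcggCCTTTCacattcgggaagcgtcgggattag
SNHG12: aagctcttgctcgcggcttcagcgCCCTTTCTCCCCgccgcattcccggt
SNHG16: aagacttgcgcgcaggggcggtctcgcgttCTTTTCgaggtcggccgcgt
GAS5: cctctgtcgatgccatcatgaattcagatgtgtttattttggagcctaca
ZFAS1: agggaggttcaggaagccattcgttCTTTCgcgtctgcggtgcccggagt

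A run of this kind lay within 20 bases of the annotated start, on the transcribed strand, in 7 of the 8 hosts searched (87.5%), GAS5 being the exception. The same search, here with no chromosome left out, found one in 59 of 63 ribosomal protein genes (93.7%). It found one in 16807 of all 35116 promoters searched (47.9%). The run began exactly at the annotated first base in SNHG5 and ZFAS1 and 1 base before it in SNHG12, whose run of 12 pyrimidines was the longest of the 8. In SNHG8 it began 5 bases before the annotated start and in SNHG16 5 bases after it. In SNHG7 and SNHG1 the first run lay farther upstream, beginning 14 and 19 bases before the annotated start. SNHG1 held no other run, while SNHG7 held another, CCTCT, beginning 1 base before its annotated start. A match of letters is a description, and no match says only that the letters were not found in the bases searched. Only 1 annotated start per host was searched. The GENCODE annotation lists 91 transcripts for GAS5, so a run at any other start it may have would not have been found.

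After Ephexin1 depletion, SNHG16, ZFAS1, SNHG8 and SNHG5 were lower, at 49.0, 57.6, 63.0 and 65.0% of the shControl mean. SNHG6, GAS5 and SNHG1 lay at 74.4, 79.7 and 91.1% without passing the test, and SNHG15, SNHG7 and SNHG12 lay at 99.98, 109 and 124%. Levels are in FPKM, a count of sequenced fragments scaled to transcript length and library size, which allows genes to be set beside each other. Differences between groups were tested with limma on log2(FPKM + 0.1) for 16020 genes that reached 0.1 FPKM in no fewer than 3 of 6 libraries, and all 10 hosts passed that filter. A gene was called when its Benjamini-Hochberg adjusted p was at most 0.025 and its change at least 2-fold, and a gene is said to have fallen or risen when its adjusted p was at most 0.05 at any fold. On these rules 1 of 10 hosts was called lower, against 0.999% of all genes tested, and 0 were called higher (1.89% of all genes were called in either direction). By the rule without a fold threshold 4 of 10 fell, against 4.32% of all genes, and 0 of 10 rose, against 2.69%. Since the hosts were chosen with earlier results known, counts set beside all genes describe them and are no test of enrichment.

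**Figure D1:**
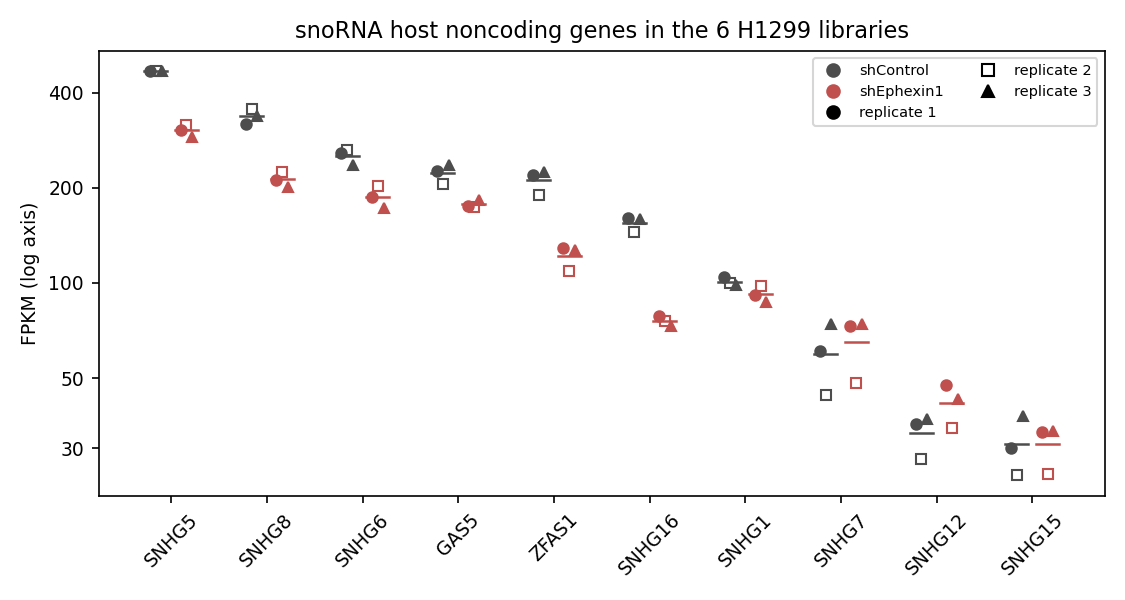
FPKM (log axis) of each host gene in every library, grey for shControl and red for shEphexin1, with the mean of each group as a bar and the replicate number as the marker shape. Every shEphexin1 library lies below every shControl library for the 7 genes on the left, from SNHG5 to SNHG1, and the groups overlap for SNHG7, SNHG12 and SNHG15.

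SNHG16, host of SNORD1 family snoRNAs and a gene often high in tumours, was at 161, 144 and 159 FPKM across the shControl libraries, against 78.5, 76.0 and 73.1 FPKM under shEphexin1. The 3 shEphexin1 libraries lay close together and far below the lowest shControl library. The group means were 155 ± 8.90 and 75.9 ± 2.68 FPKM (SD, n = 3 each). The log2 fold change was -1.03 with an SE of 0.09 (95% interval -1.25 to -0.81, limma adjusted p = 0.00229), and SNHG16 was the only host called. Without shControl replicate 1 it was -0.998 with an adjusted p of 0.0308, and under quantile normalization -0.89 with an adjusted p of 0.00268, so in neither was it called.

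ZFAS1, the antisense neighbour of the ZNFX1 promoter and host of the SNORD12 snoRNAs, was at 219, 191 and 225 FPKM across the shControl libraries, against 129, 109 and 127 FPKM under shEphexin1. Replicate 2 was the lowest library of each group, and the groups did not overlap. The means were 211 ± 18.3 and 122 ± 11.3 FPKM (SD, n = 3 each), a log2 fold change of -0.79 with an SE of 0.12 (limma adjusted p = 0.0117).

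SNHG8, host of SNORA24, was at 319, 354 and 339 FPKM across the shControl libraries, against 212, 224 and 202 FPKM under shEphexin1. Here replicate 2 was the highest library of each group, and again the groups did not overlap. The means were 337 ± 17.6 and 213 ± 11.2 FPKM (SD, n = 3 each), a log2 fold change of -0.67 with an SE of 0.09 (limma adjusted p = 0.0111).

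SNHG5, host of SNORD50A and SNORD50B, was the most abundant of the 10 in both groups. It measured 469, 468 and 468 FPKM in the controls and 305, 317 and 290 FPKM after depletion. The control libraries were almost identical, and all shEphexin1 libraries lay far below them. The means were 468 ± 0.598 and 304 ± 13.4 FPKM (SD, n = 3 each), a log2 fold change of -0.62 with an SE of 0.09 (limma adjusted p = 0.0108). Under quantile normalization SNHG5 was at -0.26 with an adjusted p of 0.233, and SNHG8 at -0.44 with an adjusted p of 0.0844, so neither passed the test there. ZFAS1, SNHG8 and SNHG5 each missed an adjusted p of 0.05 when shControl replicate 1, shControl replicate 3 or shEphexin1 replicate 1 was left out, with values between 0.0528 and 0.0851.

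SNHG6, host of SNORD87, was at 257, 263 and 236 FPKM across the shControl libraries, against 188, 203 and 173 FPKM under shEphexin1. The groups did not overlap, but the log2 fold change of -0.43 with an SE of 0.10 had an adjusted p of 0.0518 in limma. GAS5, whose introns hold a cluster of SNORD snoRNAs, was at 226, 206 and 236 FPKM across the shControl libraries, against 176, 174 and 182 FPKM under shEphexin1. Its groups also did not overlap, and its log2 fold change was -0.33 with an SE of 0.09 (limma adjusted p = 0.0885). SNHG1, host of SNORD22 and the SNORD25 to SNORD31 snoRNAs, was at 105, 100.3 and 98.2 FPKM across the shControl libraries, against 91.5, 98.0 and 86.7 FPKM under shEphexin1. The highest shEphexin1 library lay just under the lowest shControl library, and the log2 fold change was -0.14 with a 95% interval of -0.36 to 0.09 (limma adjusted p = 0.450).

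The remaining hosts had overlapping groups. SNHG15, host of SNORA9, was at 30.1, 24.6 and 37.8 FPKM across the shControl libraries, against 33.7, 24.8 and 34.0 FPKM under shEphexin1, with a log2 fold change of 0.01 (95% interval -0.45 to 0.46, limma adjusted p = 0.989). SNHG7, host of SNORA43, was at 61.0, 44.2 and 74.0 FPKM across the shControl libraries, against 72.9, 48.4 and 74.3 FPKM under shEphexin1, with a log2 fold change of 0.13 (95% interval -0.42 to 0.68, limma adjusted p = 0.795). SNHG12, host of SNORA16A, SNORA44, SNORA61 and SNORD99, was at 35.9, 27.7 and 37.2 FPKM across the shControl libraries, against 47.4, 34.7 and 42.9 FPKM under shEphexin1. Its log2 fold change was 0.31 (95% interval -0.07 to 0.70, limma adjusted p = 0.313). In all 3 genes replicate 2 was the lowest library of each group, and the intervals include changes of the size seen in GAS5 in either direction for SNHG15 and SNHG7.

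**Figure D2:**
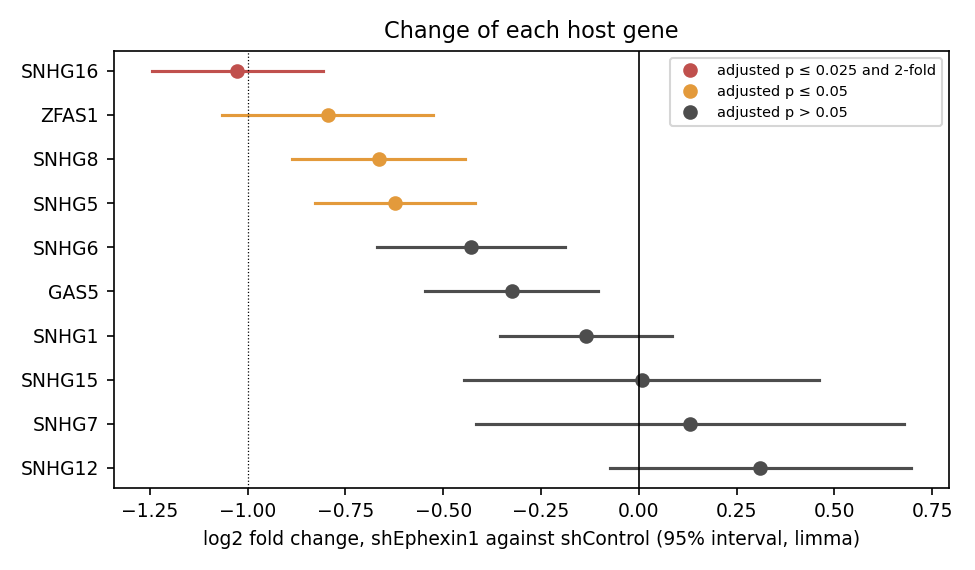
Log2 fold change of each host gene, shEphexin1 against shControl, with its 95% interval from limma; the dotted line marks a 2-fold decrease. SNHG16 (-1.03) is the only gene called, ZFAS1, SNHG8 and SNHG5 pass the rule without a fold threshold, and the intervals of SNHG1, SNHG15, SNHG7 and SNHG12 include 0.

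In 7 of 10 hosts every shEphexin1 library was lower than every shControl library, against 15.4% of all genes tested, and in 0 of 10 every one was higher, against 12.8%. For a single gene with 3 libraries against 3, the exact two-sided permutation test gives no p under 0.1, and it gave 0.1 for each of these 7. The median log2 fold change of the 10 hosts was -0.38, beside -0.01 for all genes tested, whose 5th to 95th percentiles were -0.69 to 0.85. The hosts are abundant genes. Among the 2435 genes with a mean at or above that of SNHG15, the least abundant host (30.8 FPKM), the median was -0.14, and 9.45% fell while 2.01% rose. The share of this background in the hosts' values was not tested. With quantile normalization, which gives every library the same distribution of values, the hosts' median was -0.18, 2 of 10 fell (SNHG16 and ZFAS1) and SNHG1 lay at 0.01.

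The order of the levels was nearly the same in both groups. In shControl it ran from SNHG5 (468 FPKM) through SNHG8 (337), SNHG6 (252), GAS5 (223), ZFAS1 (211), SNHG16 (155), SNHG1 (101) and SNHG7 (59.7) to SNHG12 (33.6) and SNHG15 (30.8). The libraries of GAS5 and ZFAS1 overlapped, as did those of SNHG12 and SNHG15, so these neighbours did not differ beyond their spread. In shEphexin1, SNHG16 (75.9 FPKM) stood below SNHG1 (92.1 FPKM) and overlapped with SNHG7 (65.2 FPKM), and the ranges of SNHG8, SNHG6 and GAS5 overlapped from one to the next. Summed over the 10 hosts, the level was 1883, 1823 and 1909 FPKM in shControl and 1333, 1309 and 1286 FPKM under shEphexin1. That sum was 0.293 to 0.325% of all FPKM in shControl and 0.219 to 0.254% in shEphexin1, and the ranges did not overlap.

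The 7 most abundant hosts were the 7 with lower shEphexin1 values, and the 3 least abundant were the others. Over the 10 hosts, which share the same 6 libraries, Spearman's rho between mean FPKM and log2 fold change was -0.65, and between transcript GC content and log2 fold change it was 0.36. SNHG7, SNHG12 and SNHG15 had the highest GC content of the 10, at 55.3, 52.5 and 53.2%, while the others lay between 42.2% in SNHG6 and 49.8% in ZFAS1. GC content matters here because replicate 2 of both groups stood apart: the deviation of genes from their group mean correlated with GC content at a Spearman's rho of -0.80 and -0.86 in these libraries and at 0.43 to 0.79 in the other 4 (12208 genes). With replicate 2 of both groups left out, 6 of 10 hosts fell, SNHG6 (adjusted p = 0.0167) and GAS5 (adjusted p = 0.0199) being added, and SNHG16 was at -1.08 (limma, 2 libraries a group). Over all genes, 2766 of 16020 passed in that fit, against 1123 with all libraries. Within replicate 2 alone the log2 differences, which have no test, were -0.93 for SNHG16, -0.81 for ZFAS1, -0.66 for SNHG8, -0.56 for SNHG5, -0.38 for SNHG6, -0.24 for GAS5 and -0.03 for SNHG1. Correcting the libraries for GC content and the length of transcripts moved the hosts' median to -0.25 and kept 7 of 10 below 0. In that fit 6 hosts passed an adjusted p of 0.05, with SNHG6 added to the lower ones (-0.27, adjusted p = 0.00952) and SNHG12 higher (0.35, adjusted p = 0.0195), while the genes passing overall went from 1123 of 16020 to 4673 of 15200.

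**Figure D3:**
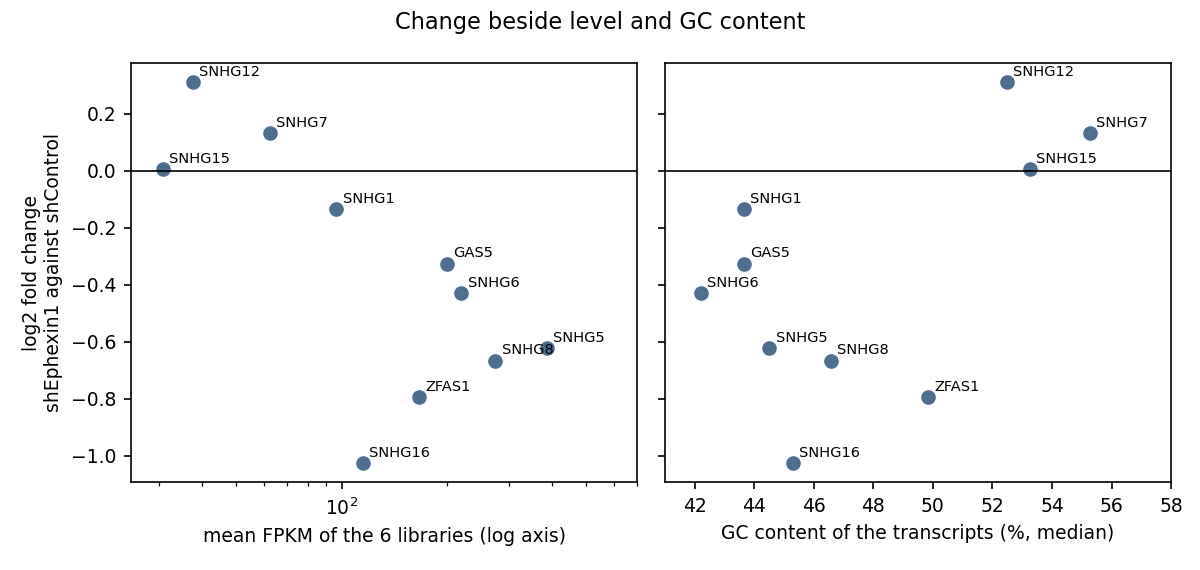
Log2 fold change of each host gene against its mean FPKM over the 6 libraries (left, log axis) and against the median GC content of its annotated transcripts (right, %). The 3 genes at or above 0, SNHG12, SNHG7 and SNHG15, are the least abundant and have the highest GC content, so that level and GC content cannot be told apart in them.

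In the GRCh37 annotation (GENCODE release 44) all 10 hosts are lncRNA genes. The called gene, SNHG16, spans 74553809 to 74667067 on the plus strand of chromosome 17, ZFAS1 spans 47894715 to 47916137 on the plus strand of chromosome 20, SNHG8 spans 119199858 to 119206471 on the plus strand of chromosome 4, and SNHG5 spans 86360209 to 86388650 on the minus strand of chromosome 6. Several hosts overlap a gene on the opposite strand, and although the library kit keeps strand, whether the counting used it is not given in the sources used here. ZNFX1, which starts 248 bases from ZFAS1 in the opposite direction, was at 15.3, 14.5 and 16.04 FPKM across the shControl libraries, against 14.0, 12.96 and 14.4 FPKM under shEphexin1, a log2 fold change of -0.15 (limma adjusted p = 0.478). SLC3A2, an amino acid transporter chain that starts 51 bases from SNHG1, was at -0.24 (adjusted p = 0.569), and ZBTB37, which starts 800 bases from GAS5, was at -0.05 (adjusted p = 0.898). None of these head-to-head partners passed the test on the values as deposited, but with the GC and length correction SLC3A2 (-0.29, adjusted p = 0.0277) and ZNFX1 (-0.18, adjusted p = 0.0450) did.

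The snoRNAs themselves were poorly covered. RefSeq places 37 snoRNAs inside the 10 hosts, and 35 of them have a row in the table. Of these, 27 were listed at 0 FPKM in all 6 libraries, among them all 10 rows inside GAS5 and all 3 inside SNHG16. The 27 were 60 to 133 bases long with a median of 75, whereas the 8 rows above 0 were 103 to 134 bases long with a median of 131.5. Of all 361 SNORA and SNORD rows deposited, 260 were listed at 0 throughout, so a 0 here may be a failed estimate and says nothing of the snoRNA's presence.

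Of the 8 snoRNA rows above 0, none passed the test on the values as deposited. SNORA43, inside SNHG7, was at 410, 421 and 415 FPKM across the shControl libraries, against 406, 399 and 355 FPKM under shEphexin1, a log2 fold change of -0.10 (limma adjusted p = 0.571). SNORA24, inside SNHG8, was at 174, 127 and 145 FPKM across the shControl libraries, against 140, 126 and 92.6 FPKM under shEphexin1. Its groups overlapped, unlike those of SNHG8, and its log2 fold change was -0.33 (limma adjusted p = 0.343). SNORD22, inside SNHG1, was at 90.5, 131 and 84.7 FPKM across the shControl libraries, against 63.4, 126 and 77.1 FPKM under shEphexin1 (log2 fold change -0.24, limma adjusted p = 0.668). SNORA9, inside SNHG15, was at 12.2, 15.1 and 12.2 FPKM across the shControl libraries, against 10.1, 9.61 and 8.92 FPKM under shEphexin1. These groups did not overlap, although those of SNHG15 did, and the log2 fold change was -0.46 (limma adjusted p = 0.0886), or -0.41 with an adjusted p of 0.0122 after the GC and length correction. Inside SNHG12, SNORA61 was at 14.8, 12.1 and 6.68 FPKM across the shControl libraries, against 25.2, 24.4 and 14.4 FPKM under shEphexin1 (log2 fold change 0.95, limma adjusted p = 0.138). SNORA16A, also inside SNHG12, was at 21.1, 5.24 and 3.42 FPKM across the shControl libraries, against 14.4, 8.55 and 0 FPKM under shEphexin1. SNORD12B, inside ZFAS1, was listed at 0 in replicate 1 of both groups and lay at 67.2 and 72.8 FPKM in the remaining controls, with 55.8 and 78.3 FPKM in the remaining shEphexin1 libraries. In these last 2 rows the fitted log2 fold changes of -1.66 for SNORA16A (limma adjusted p = 0.637) and -0.05 for SNORD12B (adjusted p = 0.996) rest on how a listed 0 is treated, and both changed sign when single libraries were left out.

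Genes of the same pathways were set beside the hosts. These lists too were chosen with earlier results of these data known, so their counts are a description. As background for the counts in these lists, 4.32% of all genes tested fell and 2.69% rose. Among the 2435 genes at least as abundant as SNHG15, 9.45% fell, 2.01% rose and the median was -0.14. Ribosomal protein genes, the classical 5'TOP genes, lay below 0 in 78 of 78 tested, with a median log2 fold change of -0.54 and a range of -1.10 to -0.15, and 44 fell while 0 rose. RPS20, a protein of the small ribosomal subunit and the only one called, was at 1727, 1681 and 1714 FPKM across the shControl libraries, against 810, 841 and 749 FPKM under shEphexin1 (log2 fold change -1.10, SE 0.09, limma adjusted p = 0.00174). Quantile normalization moved this list to 68 below and 10 above 0, with a median of -0.19 and 9 that fell, and RPS20 to -0.65, while testing without the filter on low values left 27 that fell. The count also depended on single libraries, with 4 that fell without shControl replicate 1, 6 without shEphexin1 replicate 1, 9 without shControl replicate 3 and 14 without shEphexin1 replicate 3, and it was 72 with the GC and length correction. All 78 stayed below 0 in each fit with 1 library left out and with the GC and length correction, unlike under quantile normalization. Among 11 other noncoding snoRNA hosts tested, 1 fell and 0 rose, with a median of -0.04. That gene was DANCR, a noncoding RNA known for holding back differentiation, at 32.0, 27.2 and 33.1 FPKM across the shControl libraries, against 14.6, 12.9 and 14.9 FPKM under shEphexin1 (log2 fold change -1.11, SE 0.12, limma adjusted p = 0.00432), and it was called. DANCR was no longer called without shControl replicate 1, shControl replicate 3 or shEphexin1 replicate 1 (adjusted p from 0.0259 to 0.0439), and RPS20 was not called without shControl replicate 1 (adjusted p = 0.0256) or, at -0.997 on the log2 scale, with the correction for GC content and length.

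Of 21 protein-coding snoRNA hosts, 2 fell and 0 rose, with a median of -0.11. These were the translation elongation factor gene EEF1B2 (log2 fold change -0.55, SE 0.09, limma adjusted p = 0.0159) and TPT1, which encodes the translationally controlled tumour protein (-0.44, SE 0.09, adjusted p = 0.0360). Both are 5'TOP genes by textbook knowledge, but the rest of this list, EEF2 and GNB2L1 among them, was not sorted by that feature. Whether 5'TOP genes among these 21 fell more often than the others was not tested. Among 16 genes of snoRNA-protein complexes and their assembly, 1 fell and 0 rose, with a median of -0.22. SHQ1, an assembly factor of H/ACA complexes, fell (-0.53, SE 0.12, adjusted p = 0.0484), and NOP56, a core protein of C/D complexes, was at -0.37 (adjusted p = 0.0995). Of 10 nonsense-mediated decay genes, 1 fell and 0 rose, with a median of -0.02: SMG8, a regulator of the kinase SMG1, was at -0.75 (SE 0.11, adjusted p = 0.0129), and the decay helicase gene UPF1 was at 0.30 (adjusted p = 0.456). Of 8 regulators of 5'TOP translation, 1 fell and 0 rose, with a median of -0.27. RPS6KB1, which encodes the S6 kinase, fell (-0.74, SE 0.17, adjusted p = 0.0428), and EIF4EBP2, a repressor of cap-dependent translation, was at -0.41 (adjusted p = 0.0685). Under quantile normalization the medians of the other noncoding hosts, the protein-coding hosts and the nonsense-mediated decay genes turned to 0.01, 0.05 and 0.05, and EEF1B2, TPT1, SHQ1 and RPS6KB1 no longer passed. Over all 18 alternatives an adjusted p of 0.05 or less was reached in 16 by SMG8, 13 by EEF1B2, 10 by TPT1, 9 by RPS6KB1 and 7 by SHQ1.

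The 3 genes most like the hosts' mean pattern over the 6 libraries, by the root mean square difference of log2 values centred on each gene's mean, were the splicing factor gene SRSF2 (0.0162), UMPS, an enzyme of pyrimidine synthesis (0.0227), and the ubiquitin ligase gene RNF4 (0.0282), among 12628 genes compared. Their log2 fold changes were -0.35, -0.37 and -0.38, and none of these genes passed the test on the values as deposited.

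The target of the shRNA, NGEF, was at 13.3, 11.7 and 16.4 FPKM across the shControl libraries, against 9.81, 8.25 and 10.5 FPKM under shEphexin1, 68.9% of control, with a log2 fold change of -0.53 (SE 0.16, limma adjusted p = 0.103). The groups did not overlap, but the targeted gene did not pass the test with all libraries as deposited. It passed with the GC and length correction (-0.51, adjusted p = 0.00256) and with replicates 1 and 3 alone (-0.54, adjusted p = 0.0338). The paper reports that its stable knockdown clones, H1299 among them, were checked for Ephexin1 protein by western blot. Protein is a measure apart from these RNA values. Between 16958 and 17509 genes were above 0 per library. The epithelial keratin genes KRT8 and KRT18 were expressed, at 5.13 to 8.44 and 67.6 to 109 FPKM in the controls, and both fell, to 2.65 to 3.48 and 36.3 to 54.7 FPKM (limma adjusted p = 0.0304 and 0.0439), though neither passed when replicate 1 or replicate 3 of either group was left out. Their part in the host gene values was not tested. The mesenchymal gene VIM was at 1979 to 2670 FPKM, and CDH1 and NKX2-1 were listed at 0 in all 6 libraries. Of 4 markers of other cell types, the leukocyte gene PTPRC and the globin gene HBB were listed at 0 in all 6 libraries, and PECAM1 and COL1A1 did not exceed 0.0992 and 0.386 FPKM. The deposited FPKM give no counts, so the depth is unknown.

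**Figure D4:**
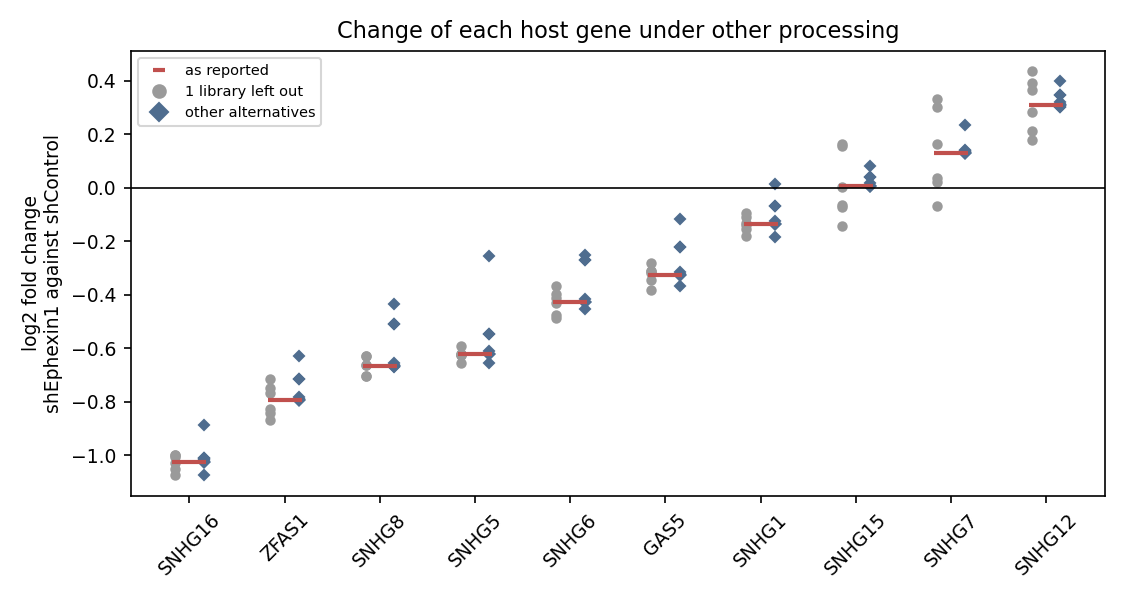
Log2 fold change of each host gene as reported (red bar), with 1 library left out (grey circles) and under the other processing alternatives (blue diamonds). SNHG16, ZFAS1, SNHG8, SNHG5, SNHG6, GAS5 and SNHG12 keep their direction throughout, and SNHG1, SNHG15 and SNHG7 cross 0 under at least 1 alternative.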

How the data were processed

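The authors sequenced total RNA (TRIzol, TruSeq stranded kit), mapped reads to GRCh37/hg19 with TopHat2 2.0.13 and deposited 1 FPKM value per gene and library from Cufflinks 2.2.1. These were scaled by the geometric method of Cuffdiff; the gene annotation is not given in the sources used here. FPKM hold no counts, so depth and counting error are unknown. From the deposited FPKM, log2(FPKM + 0.1) was computed, genes reaching 0.1 FPKM in no fewer than 3 of 6 libraries were kept, and shEphexin1 was compared with shControl in limma 3.58.1 (R 4.3.3, empirical Bayes with trend), with Benjamini-Hochberg adjustment over all genes kept. The thresholds (adjusted p of 0.025, 2-fold) followed the study. The members and gene lists were chosen with earlier results of these data known. Named were all 10 members; from each list the genes called, otherwise the 2 with the lowest unadjusted p; snoRNAs inside a member that passed the filter, at most 2 per host by mean FPKM; and the 3 genes of at least 1 FPKM most like the members' mean. Head-to-head neighbours, protein-coding genes on the opposite strand with an annotated start within 1000 bases of a host's start, were added. GC content and length came from GENCODE release 44 (22422 names matched directly and 1332 by an older symbol), and sequences from RefSeq GRCh38.p14. The alternatives were other pseudocounts, filters, scalings, eBayes settings, GC and length correction, a replicate block, and libraries left out.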

Additional observations from a re-analysis of the deposited data

How the results depend on the processing

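Of the 10 hosts, SNHG16, ZFAS1, SNHG8, SNHG5, SNHG6, GAS5 and SNHG12 kept their direction under all 18 alternatives, and SNHG16 kept an adjusted p of at most 0.05 in all of them (0.000103 to 0.0308). Quantile normalization left 0 hosts called and 2 with an adjusted p of at most 0.05, moved the median log2 fold change of the hosts from -0.38 to -0.18, and reversed SNHG1 (0.0125), SNORA43 (0.27) and SNORD12B (0.0356). An adjusted p of at most 0.05 with no fold threshold gave 4 hosts. The correction for GC content and length gave a median of -0.25 with and without the replicate block. The cause was not tested. With 1 library left out, 0 to 1 hosts were called (0 without shControl replicate 1) and 1 to 5 had an adjusted p of at most 0.05 (1 without shControl replicate 1, shControl replicate 3 or shEphexin1 replicate 1), while the hosts' median lay between -0.40 and -0.36. In these fits SNHG7 ranged from -0.0700 to 0.33, SNHG15 from -0.14 to 0.16, ZBTB37 from -0.15 to 0.0313, SNORA16A from -2.98 to 0.61 and SNORD12B from -3.21 to 3.07. SNORD12B was at 0.0518 with replicates 1 and 3 alone. Over all genes, the number called went from 303 to 61 without shControl replicate 1.

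The replicate numbers were not taken as pairs: same-numbered libraries deviated together with correlations of 0.0914, 0.430 and 0.328, although every library correlated best with its own number, a hint from the data and not the design. With the replicate number as a block, 7 hosts had an adjusted p of at most 0.05 (6 lower and SNHG12 higher, adjusted p = 0.00690), with the GC and length correction also 7, and over all genes 5374 against 1123. The block also took SNORA61 (adjusted p = 0.000652), SNORA9 (0.0106), SLC3A2 (0.0194) and NGEF (0.00284) under 0.05, as well as NOP56, EIF4EBP2, UPF1, SRSF2, UMPS and RNF4. SNHG1, SNHG7 and SNHG15 did not reach an adjusted p of 0.05 under any alternative, which with 3 libraries a group and unknown depth does not show that they were unaltered.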
